A study of Mus musculus with 12 samples.

Results

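The IL-1 family described here comprised 10 genes of cytokines and receptors: Il1a, Il1b, Il18, Il33, Il1rn, Il1r1, Il1r2, Il1rap, Il1rl1 and Il18rap. They were chosen by gene name among the non-control probes of the array and were represented by 14 of 55681 probes and 10 of 34797 gene names. Aortas came from 12 male C57BL/6J mice aged 11 to 14 weeks, 1 array per mouse and 3 mice per group, on day 3 of treatment. DMSO mice received the vehicle dimethylsulfoxide alone, and rapamycin mice received 2 mg/kg/day of this mTOR inhibitor in DMSO. BA+DMSO mice received the challenge that leads to aortic dissection, namely β-aminopropionitrile (BAPN, 150 mg/kg/day), which blocks collagen crosslinking, and angiotensin II (AngII, 1 µg/kg/min), with vehicle. BA+rapamycin mice received the same challenge with rapamycin at 2 mg/kg/day. BAPN and AngII were delivered by implanted pump, and RNA came from a 10 mm length of aorta, so that every wall layer and any infiltrating cell contributed. In their titles the DMSO samples carry the word Pre, which the study uses for mice before the challenge, whereas the series record lists them as vehicle only.

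IL-1α and IL-1β signal through the receptor IL1R1, which needs the accessory chain IL1RAP, and they are opposed by the antagonist IL1RN and the decoy receptor IL1R2. IL-33 is a nuclear cytokine of stromal and endothelial cells that is released on injury and acts on ST2, the product of Il1rl1, again together with IL1RAP. IL-18 is cleaved by caspase-1 in the inflammasome, binds IL18R1 with IL18RAP, and is neutralised by IL18BP.

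Of the 10 genes, 5 were bright enough to test: Il33, Il18, Il1rap, Il1rl1 and Il1r1, each well above background in 3 of 3 mice of some group. Il1a, Il1b, Il1rn, Il1r2 and Il18rap were not, and have no tested value. Levels are log2 values relative to the 75th percentile of each array, so that 0 is that percentile, and they compare the same probe between mice, not one gene with another. A call is an adjusted p under 0.05 in limma, with Benjamini-Hochberg adjustment over all 27801 probes tested.

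Il1rl1 and Il1rap had 3 probes each along the gene, and the start of each probe is shown because the probes gave different answers. For Il1rl1, the most upstream probe (mm9 chr1:40504769-40504828) belongs to the transcript of soluble ST2 and the other probes (mm9 chr1:40520014-40520073 and chr1:40522187-40522246) to that of the membrane receptor. For Il1rap, the upstream probe (mm9 chr16:26701498-26701557) belongs to the transcript of the soluble accessory protein, the middle probe (chr16:26716515-26716574) to the membrane form, and the downstream probe (chr16:26725291-26725350) to a transcript not matched to RefSeq. All lie on the plus strand, and the first 30 of their 60 bases read as follows, 5′ to 3′.
Il1rl1 upstream probe: ctctgtaacaggatcttttgtctagatttc
Il1rl1 middle probe: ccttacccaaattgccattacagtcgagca
Il1rl1 downstream probe: gccattgactccttgtgtgttttcttcatg
Il1rap upstream probe: gatgttgtcaacgcctttgtttctaaatgt
Il1rap middle probe: catacatctttcagtagtcattggcaaaat
Il1rap downstream probe: ccattttctttaaccagctcttccttgatc

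The downstream Il1rl1 probe was well above background on 12 of 12 arrays, whereas the upstream and middle probes were so on 0 of 12, although the middle and downstream probes name the same transcript. All 60 bases of the downstream probe also occur, on the same strand, 210 to 151 bases before the first listed start site of the neighbouring gene Il18r1 (GRCm38.p6, RefSeq). RNA from the end of Il1rl1 and from an Il18r1 transcript with an earlier start cannot be told apart by this probe. For Il1rap, the upstream probe was above background on 11 of 12 arrays and the middle and downstream probes on 0 of 12. The Il1rap values below are therefore those of the probe of the soluble form, and the Il1rl1 values those of the downstream probe.

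**Figure D1:**
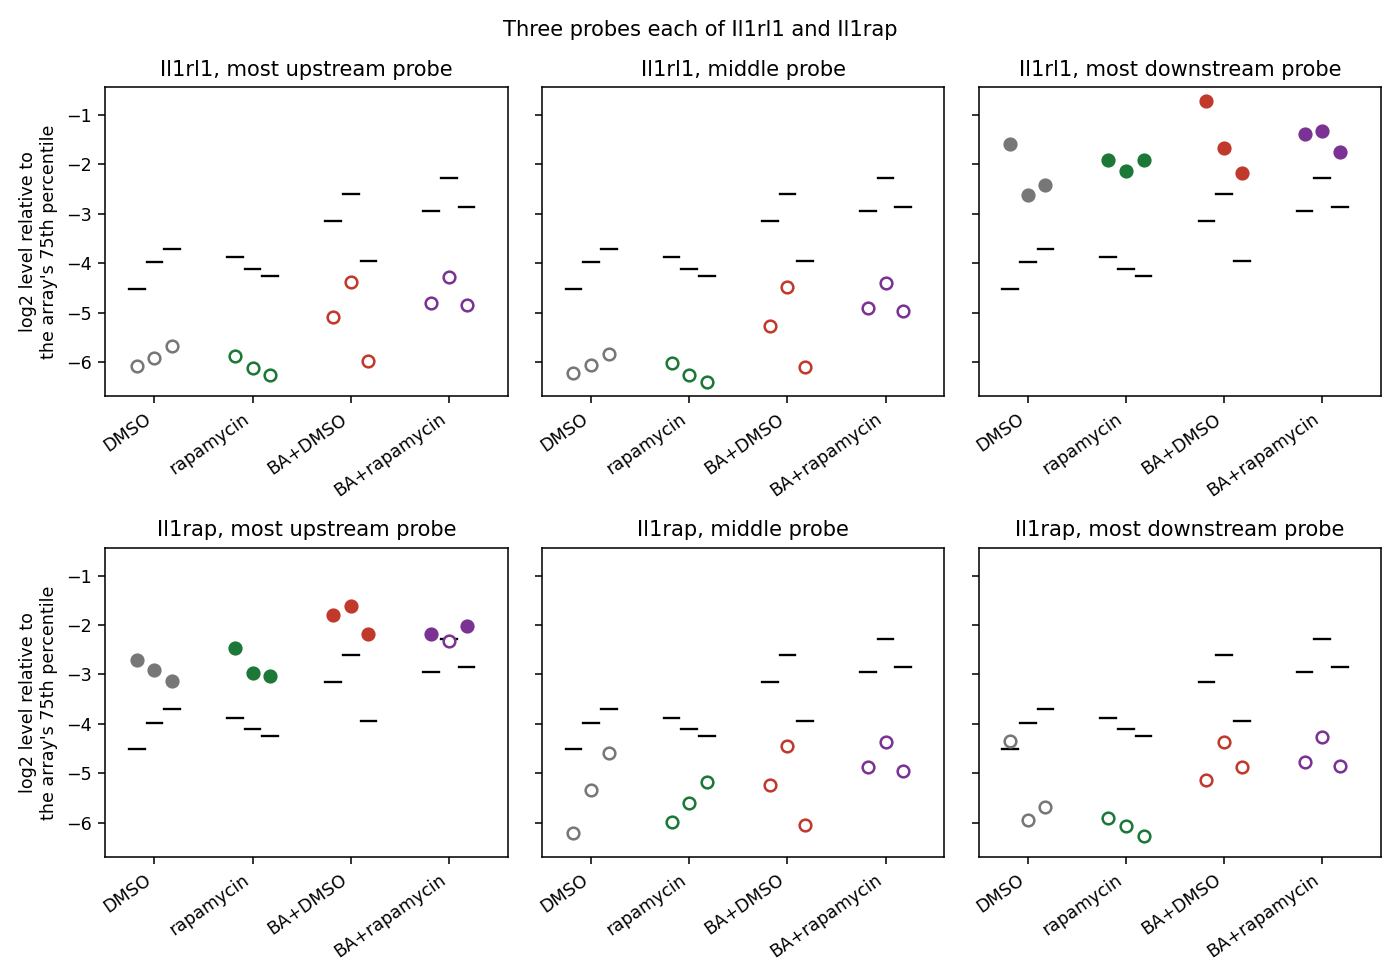
Level of the 3 probes of Il1rl1 (top) and of Il1rap (bottom) on each array, in log2 relative to the 75th percentile of the array, by group. Filled points were well above background, open points were not, and the black dash over or under each point is the lowest signal well above background on that array; only the downstream Il1rl1 and the upstream Il1rap probes carry filled points.

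The arrays differed in brightness along with the challenge. The 75th percentile of processed signal was 221 to 280 intensity units in DMSO and 257 to 337 in rapamycin mice, against 78.1 to 246 under BA+DMSO and 74.6 to 109 under BA+rapamycin. The lowest signal well above background was -4.52 to -3.71 (DMSO), -4.25 to -3.88 (rapamycin), -3.95 to -2.61 (BA+DMSO) and -2.95 to -2.28 (BA+rapamycin) on the log2 scale. Slide 1 held all 3 DMSO arrays and rapamycin 1, and slide 2 held rapamycin 2 and 3 and the 6 challenged arrays. Markers of smooth muscle were above background on every array for 10 of 10 genes. The BA+DMSO arrays had the lowest weights: limma's array weights were 0.0028, 0.171 and 0.354 for BA+DMSO 1, 2 and 3 and at least 0.972 for every other array. That estimate stopped before it converged, and one made gene by gene gave the same arrays 1.88, 0.102 and 0.199, so that the 2 estimates differ on BA+DMSO 1. Values without single arrays are given where these decide a result.

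The first question was which members changed with the challenge in vehicle-treated mice. The challenge raised the alarmin Il33, the inflammasome cytokine Il18 and Il1rap, as read by the probe of its soluble form, about 2-fold each, while neither Il1rl1 nor Il1r1 passed the test. The probe of the membrane form of Il1rap, the accessory chain in signalling, was at background on every array. In all, 3 of 5 tested members were called, all higher, where 21.4% of all tested genes were called and 10.4% were called higher. The median difference was 1.06 over the 5 members and -0.02 over all genes.

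Il33 was at 1.26, 0.61 and 0.73 in DMSO mice 1 to 3 and at 2.81, 1.61 and 1.95 in BA+DMSO mice 1 to 3. Every challenged mouse lay above every DMSO mouse, and the level rose 2.39-fold (log2 difference 1.26 ± 0.32 SE, adjusted p = 0.0212 in limma). Il18 was at -1.77, -2.54 and -2.39 in DMSO and at -0.46, -1.52 and -1.09 in BA+DMSO. These ranges did not overlap either, and Il18 rose 2.31-fold (1.21 ± 0.35, adjusted p = 0.0327 in limma). Il1rap was at -2.71, -2.92 and -3.14 in DMSO and at -1.80, -1.61 and -2.18 in BA+DMSO. These ranges did not overlap, and Il1rap rose 2.08-fold (1.06 ± 0.22, adjusted p = 0.00774 in limma). Before scaling, the ranges of all these genes overlapped between the groups. Mean unscaled intensities in DMSO and BA+DMSO were 482 and 706 for Il33, 56.7 and 79.7 for Il18, and 34.4 and 39.3 for Il1rap. The separation thus rests on the scaling of each array.

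Il1rl1, the receptor for IL-33, was at -1.58, -2.62 and -2.41 in DMSO and at -0.72, -1.66 and -2.16 in BA+DMSO. The groups overlapped and the difference of 0.69 ± 0.36 was not called (adjusted p = 0.193 in limma). Over 25 alternatives the Il1rl1 difference ran from 0.29 to 1.41, and 2 of them called it (lowest adjusted p = 0.00472 in limma). Il1r1, the signalling receptor for IL-1, was at 2.06, 2.16 and 1.67 in DMSO and at 2.30, 0.19 and 1.91 in BA+DMSO. Here 1 challenged mouse was low and the others lay within or just above the DMSO range. The difference of -0.50 (95% interval -1.48 to 0.48, adjusted p = 0.452 in limma) became 0.14 without BA+DMSO 2.

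Leaving out DMSO 2, DMSO 3 or BA+DMSO 1 ended the calls of Il33 (adjusted p 0.0916, 0.0693 and 0.0704) and of Il18 (0.129, 0.0963 and 0.121), but not that of Il1rap. The Il18 call also ended with quantile normalization (1.04, adjusted p = 0.0887), with the deposited matrix (adjusted p = 0.0892) and without a filter on dim probes (adjusted p = 0.0675), and it was lost in 9 of 24 alternatives in all. A fit of the 2 groups alone ended all 3 calls (adjusted p 0.0959 for Il33, 0.0952 for Il18 and 0.0622 for Il1rap). With slide as a fixed block no member was called, and 15 probes were called in all; no slide held both groups, so that slide and challenge cannot be told apart here. With array weights no member was called either (adjusted p 0.592 for Il33, 0.652 for Il18 and 0.533 for Il1rap), whereas weights made gene by gene, a choice made after that result was seen, called these 3 and Il1rl1.

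**Figure D2:**
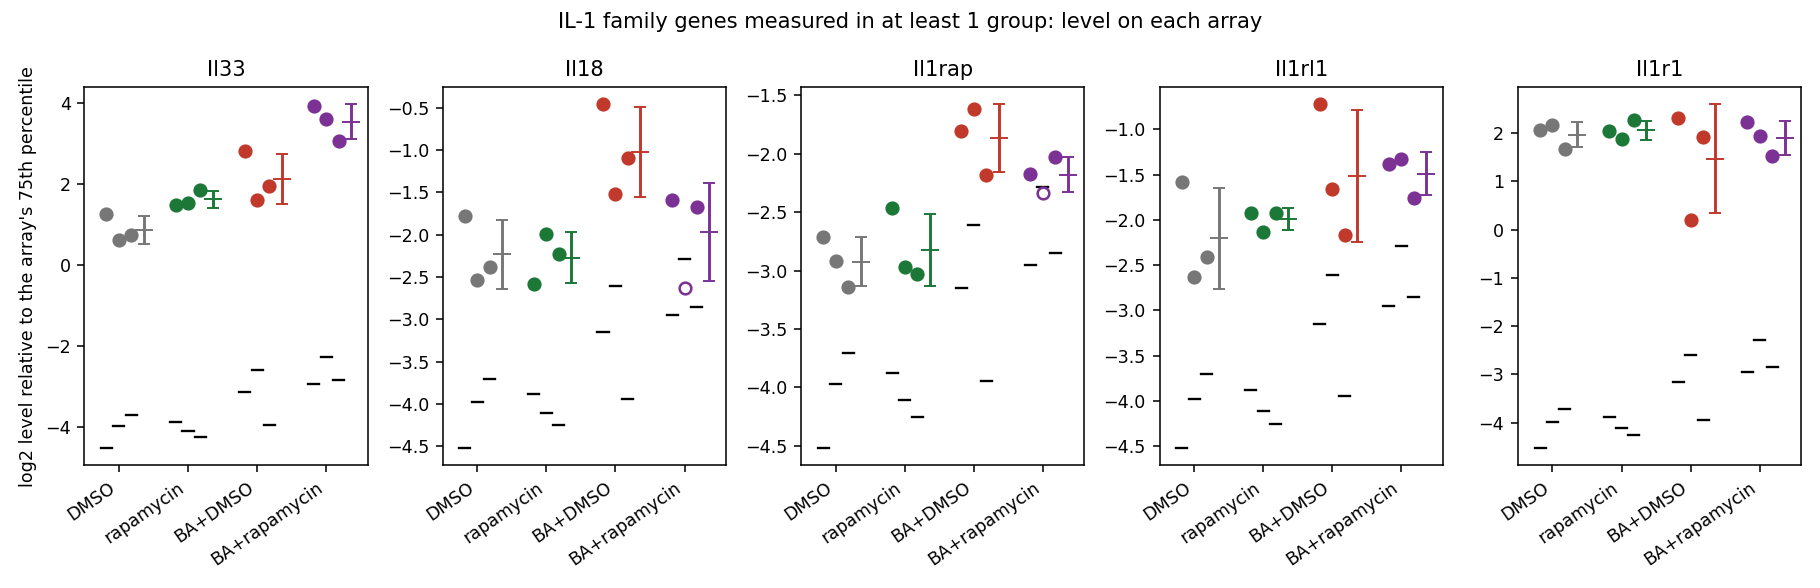
Level of the 5 tested members on each array, in log2 relative to the 75th percentile of the array, by group. Points are mice in the order of their replicate number, open where not well above background, bars are the group mean ± SD (n = 3) and black dashes are the lowest signal well above background on that array; Il33 is highest in BA+rapamycin, at 3.07 to 3.93.

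The same challenge was next compared among rapamycin-treated mice. Under rapamycin, Il33 rose 3.77-fold and Il1rap rose 1.56-fold, whereas Il18 was not called (1 of 25 alternatives called it). These were 2 of 5 tested members, both higher, where 42.7% of all tested genes were called and 19.8% were called higher. The median difference was 0.50 over the members and -0.07 over all genes.

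Il33 was at 1.48, 1.53 and 1.86 in rapamycin mice and at 3.93, 3.61 and 3.07 in BA+rapamycin mice. The groups were separated by a wide gap (log2 difference 1.91 ± 0.32 SE, adjusted p = 0.00186 in limma), and Il33 stayed called in each of 26 alternative fits, at an adjusted p of 0.0101 or less, but not by the methods' rule, which asks for a fold over 4. Within the slide that held rapamycin 2 and 3 and all BA+rapamycin arrays the difference was 1.84 (adjusted p = 0.00733 in limma). Before scaling, the mean intensity of Il33 was 908 in rapamycin and 1161 in BA+rapamycin mice, with overlapping ranges. Il1rap was at -2.47, -2.97 and -3.03 in rapamycin and at -2.17, -2.33 and -2.03 in BA+rapamycin, a difference of 0.65 ± 0.22 (adjusted p = 0.0340 in limma). One BA+rapamycin array was not above background for this probe. Its mean unscaled intensity was 40.8 in rapamycin and 21.8 in BA+rapamycin mice. With all values below the background limit of the dimmest array, -2.28, raised to it, a choice made after seeing the data, the Il1rap difference was 0.12 (adjusted p = 0.471), and 9 of 25 alternatives ended the call. The same limit left the Il1rap difference of the challenge on vehicle at 0.42 (adjusted p = 0.0456 in limma). Every DMSO and rapamycin value of Il1rap lay below the limit and was set to it. These groups then had no spread, so that neither adjusted p is a fair test of Il1rap.

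Il18 was at -2.59, -2.0 and -2.23 in rapamycin and at -1.60, -2.63 and -1.67 in BA+rapamycin. The groups overlapped, with 1 BA+rapamycin array not above background, and the difference was 0.31 ± 0.35 (adjusted p = 0.493 in limma). Over 25 alternatives the Il18 difference ran from -0.06 to 0.71, and 1 of them called it (adjusted p = 0.00303 in limma). Il1rl1 was at -1.92, -2.13 and -1.92 in rapamycin and at -1.38, -1.33 and -1.76 in BA+rapamycin. These did not overlap, but the difference of 0.50 ± 0.36 was not called (adjusted p = 0.267 in limma). In 2 of 26 alternatives Il1rl1 was called (lowest adjusted p = 0.0342 in limma). Il1r1 was at 2.04, 1.87 and 2.26 in rapamycin and at 2.22, 1.94 and 1.51 in BA+rapamycin, a difference of -0.16 (95% interval -1.14 to 0.82).

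The effect of rapamycin within challenged mice was the question closest to treatment. No member was called here, where 0.305% of all tested genes were. Of 20026 tested genes, 4104 had an unadjusted p under 0.05 in limma. Il33 was higher in every BA+rapamycin mouse than in any BA+DMSO mouse, by 2.66-fold (log2 difference 1.41, 95% interval 0.70 to 2.13, unadjusted p = 0.00112, adjusted p = 0.0871 in limma). Il18 was lower in every BA+rapamycin mouse than in any BA+DMSO mouse, by a log2 difference of -0.94 (95% interval -1.71 to -0.17, adjusted p = 0.197 in limma). How many of all genes were separated in this way was not counted. The downstream Il1rl1 probe differed by 0.03, the probe of soluble Il1rap by -0.31 and Il1r1 by 0.43, with intervals that all included 0. Their directions depended on the alternative, and no alternative called them. Differences ran from -0.67 to 0.42 for Il1rl1, from -0.55 to 0.12 for Il1rap and from -0.37 to 0.84 for Il1r1. For the IL-18 receptor, Il18rap was at background on every array, and Il18r1, a gene outside the 10 members, was above background on 3 of 3 BA+DMSO and 1 of 3 BA+rapamycin arrays (not called, adjusted p = 0.273 in limma).

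Single arrays, weights and scaling each changed these calls. With the 75th percentile taken over probes above background on all arrays, Il33 was called at 1.55 (adjusted p = 0.047 in limma) and Il18 was not. Without BA+DMSO 2, Il33 was called at a difference of 1.15 (adjusted p = 0.0204) and Il18 at -1.19 (adjusted p = 0.0281), in an analysis in which the probes called rose from 78 to 11092. Without BA+DMSO 1, Il33 was called at 1.76 (adjusted p = 0.0338) and Il18 was at -0.66 (adjusted p = 0.341). With array weights neither was called (adjusted p 0.487 and 0.728), and with gene-by-gene weights Il18 was called (-1.25, adjusted p = 0.0269) and Il33 was not (0.74, adjusted p = 0.0964).

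Rapamycin alone, compared with DMSO, called no member and 0.00499% of all tested genes. Il33 was 1.69-fold higher, with every rapamycin mouse above every DMSO mouse (log2 difference 0.76, 95% interval 0.04 to 1.47, unadjusted p = 0.0395, adjusted p = 1 in limma), and array weights brought it to an adjusted p of 0.0457. Of 20026 tested genes, 888 had an unadjusted p under 0.05 in this comparison. How many of all genes were separated in this way was not counted. The other members differed by -0.04 (Il18) to 0.21 (Il1rl1). The level of Il33 thus averaged 0.87 ± 0.34 (SD, n = 3) in DMSO mice and 1.62 ± 0.20 with rapamycin alone, then 2.12 ± 0.62 under BA+DMSO and 3.54 ± 0.43 under BA+rapamycin. The neighbours rapamycin and BA+DMSO overlapped, and their difference was not tested.

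Whether rapamycin acted differently with and without the challenge was tested by the interaction. No member was called, nor was any gene (0% called, with 1204 genes at an unadjusted p under 0.05 in limma). The interaction was 0.66 for Il33 (95% interval -0.35 to 1.67) and -0.90 for Il18 (-1.99 to 0.18). The challenge effects on Il18 with and without rapamycin are therefore not shown to differ.

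**Figure D3:**
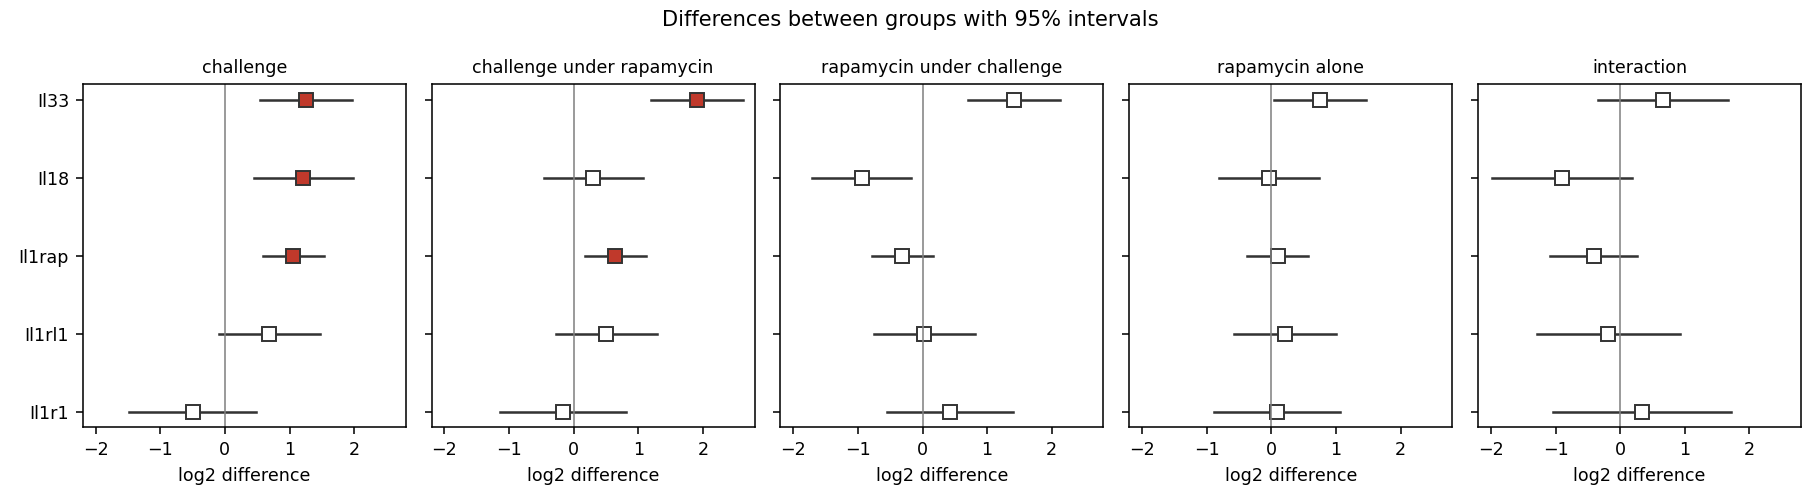
Log2 difference of the 5 tested members in each comparison, with 95% intervals from limma; squares are filled where the adjusted p was under 0.05. In the challenge panel 3 squares are filled, in the challenge under rapamycin panel 2, and in the other panels none; Il33 lies to the right of 0 in every panel.

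The change of Il33 was also set against that of the downstream Il1rl1 probe within each array, a difference that does not depend on array scaling but carries the uncertainty over which gene that probe reads. The log2 level of Il33 minus that of Il1rl1 averaged 3.07 ± 0.21 (SD, n = 3) in DMSO mice and 3.61 ± 0.20 with rapamycin, and 3.64 ± 0.44 in BA+DMSO mice and 5.03 ± 0.25 with BA+rapamycin. It shifted by 0.57 with the challenge, 0.54 with rapamycin alone, 1.39 with rapamycin under challenge and 1.41 with the challenge under rapamycin, each at p = 0.1 in an exact two-sided permutation test, the smallest that 3 against 3 mice can give (adjusted p 0.229 over 16 such comparisons of 4 pairs). The other pairs, Il1b with Il1rn, Il1r1 with Il1r2 and Il18 with Il18rap, each held a probe at background, and the lowest adjusted p among all 16 was the same 0.229.

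Among the dim members, Il1b, the principal secreted IL-1, has a probe that is spotted 10 times per array (mm9 chr2:129190347-129190406). Of these 10 spots, 4, 1 and 1 were well above background in DMSO mice and 1, 2 and 1 with rapamycin, against 10, 2 and 10 under BA+DMSO and 9, 4 and 10 under BA+rapamycin. By the limit of at least 0.5 of its spots, the probe was above background on 0 of 6 unchallenged arrays and on 4 of 6 challenged arrays, namely BA+DMSO 1 and 3 and BA+rapamycin 1 and 3. Its unscaled intensity was 17.3, 11.1 and 13.8 in DMSO, and 13.3, 13.3 and 11.3 with rapamycin, against 29.3, 12.2 and 39.1 under BA+DMSO and 26.6, 16.3 and 35.1 under BA+rapamycin. The exceptions in both challenged groups were the 2 dimmest arrays of the series. The scaled level averaged -4.20 ± 0.33 (SD, n = 3) in DMSO mice and -4.51 ± 0.34 with rapamycin, and -2.50 ± 0.28 under BA+DMSO and -1.95 ± 0.30 under BA+rapamycin.

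No fold is given for Il1b, Il1r2 or Il1rn, since their challenged groups also held arrays at background. With values raised to the background limit of the dimmest array (-2.28), Il1b lay above it on BA+DMSO 1 and on all 3 BA+rapamycin arrays, of which BA+rapamycin 2 was at background by its own spots, and not on BA+DMSO 3, where 10 of 10 spots were above background. A fit with no filter on dim probes gave Il1b adjusted p values of 0.00589 with the challenge and 0.000527 with the challenge under rapamycin in limma. That fit also called Il1a (difference 1.40, adjusted p = 0.00814) and Il18rap (1.47, adjusted p = 0.00812) in the challenge under rapamycin, although both were above background on 0 of 12 arrays, and lay higher on the dimmer challenged arrays (Il1a at -6.11 in rapamycin and -4.71 in BA+rapamycin, on average).

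The decoy receptor Il1r2 was above background on BA+DMSO 1 and 3 (-1.92 and -3.49) and BA+rapamycin 1 (-2.15), and on 0 of 6 unchallenged arrays. The antagonist Il1rn was above background only on BA+rapamycin 1 (-2.31), where its intensity was 22.1 against 3.89 to 12.9 on the other 11 arrays. With values raised to the background limit of the dimmest array, Il1rn lay at that limit on all 12 arrays and Il1r2 above it on BA+DMSO 1 and BA+rapamycin 1 only. The alarmin Il1a and the IL-18 accessory chain Il18rap gave no signal above background on any array.

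**Figure D4:**
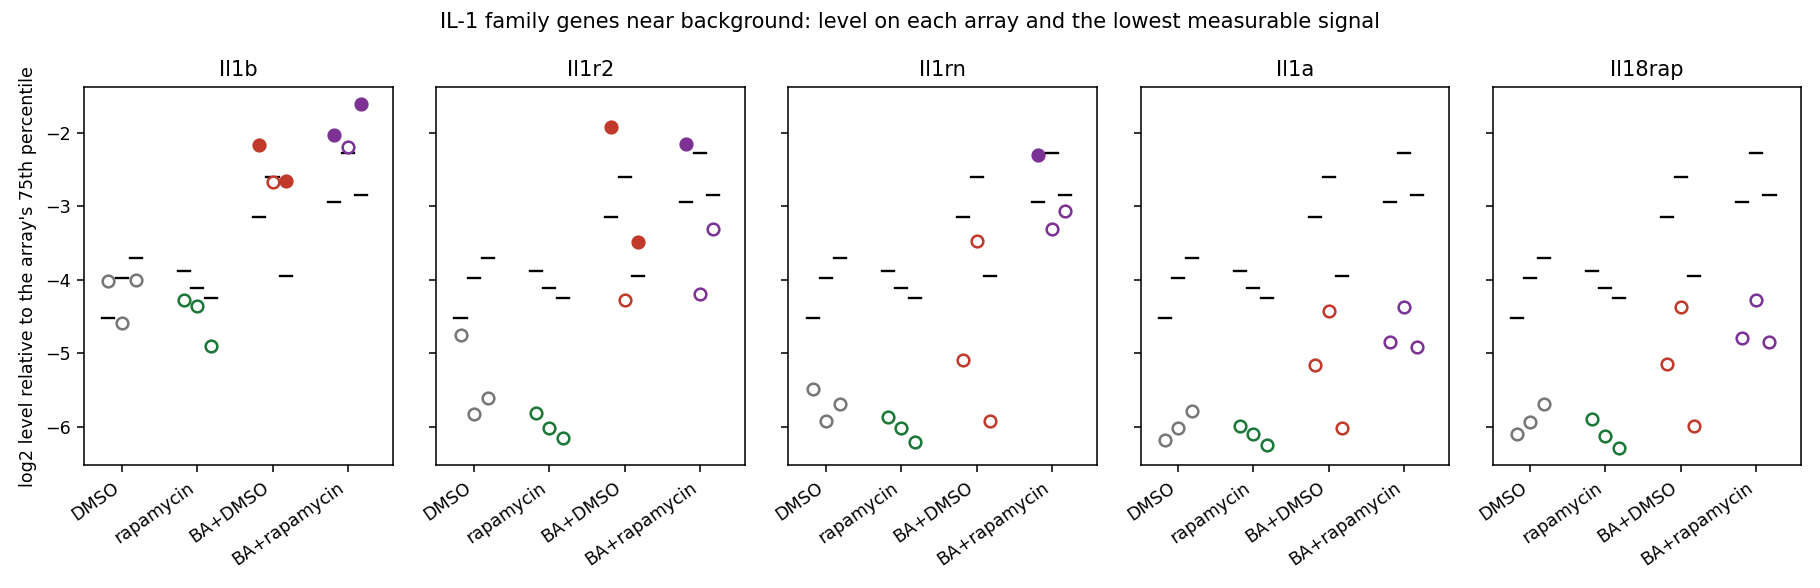
Level of the 5 dim members on each array, in log2 relative to the 75th percentile of the array, by group. Filled points were well above background, open points were not, and the black dash is the lowest signal well above background on that array; filled points occur only in challenged mice, 4 for Il1b, 3 for Il1r2 and 1 for Il1rn.

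The rest of the pathway was described by lists of other family members, processing enzymes, signalling proteins and known IL-1 target genes. Of 11 other ligands and receptors, 3 were tested, Il18bp, Sigirr and Il18r1. Beside the counts of pathway and marker genes below, 10.4% of all tested genes were called higher with the challenge and 19.8% under rapamycin. Of 20026 tested genes, 2211 were called lower with the challenge and 4579 under rapamycin. The IL-18 inhibitor Il18bp was at -1.92, -2.10 and -1.75 in DMSO and at -0.56, -1.15 and -0.42 in BA+DMSO (difference 1.21, adjusted p = 0.00384 in limma), and the inhibitory receptor Sigirr rose by 1.04 (adjusted p = 0.0195). Under rapamycin Il18bp rose by 1.02 (adjusted p = 0.00491) and Sigirr by 1.36 (adjusted p = 0.00349). The receptor Il18r1 was above background in all 3 BA+DMSO mice (-0.89, -1.47 and -1.61), in DMSO 1 (-2.93) and in BA+rapamycin 3 (-1.18) only, and was called higher with the challenge (adjusted p = 0.0220 in limma). It was tested because of its BA+DMSO values, and 2 of 3 DMSO arrays were at background, so that no size is given for its rise. Il1f9, which encodes IL-36γ, was at background on every array.

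Of 11 tested genes of processing and release, 5 rose and 0 fell with the challenge, with a median of 0.51. Casp1, the IL-1β and IL-18 converting enzyme, rose by 1.03 (adjusted p = 0.0110) and the inflammasome adaptor Pycard by 1.39 (adjusted p = 0.0130 in limma). The sensor Nlrp3 had no call, and was above background on 1 of 3 DMSO, 3 of 3 rapamycin and 0 of 6 challenged arrays. Under rapamycin 4 of 11 rose. Pycard rose by 1.16 (adjusted p = 0.0157), while Casp1 differed by 0.22 (adjusted p = 0.444).

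Of 21 signalling proteins, all tested, 1 rose and 3 fell with the challenge, with a median of 0.01, and 4 rose and 4 fell under rapamycin, where 42.7% of all tested genes were called in either direction. The receptor adaptor Myd88 differed by 0.40 and the inhibitory kinase Irak3 by 0.53 with the challenge, neither called (adjusted p 0.258 and 0.0904). Irak4, the first kinase after Myd88, differed by 0.59 on vehicle (adjusted p = 0.146) and rose by 0.79 under rapamycin (adjusted p = 0.0385 in limma). On BA+rapamycin 2 Irak4 was not above background (-2.27). Its highest rapamycin value, -2.58, lay below the background limit of the dimmest array (-2.28), so that brightness limits the size of this rise.

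Of 21 tested genes that IL-1 is known to raise, 11 rose and 0 fell with the challenge, with a median of 1.42, and 10 rose and 1 fell under rapamycin, with a median of 0.97. These counts and medians include Il6, Lif and Bdkrb1, at background in both unchallenged groups, and Saa3, at background in DMSO, which were tested through groups where they were high. The monocyte chemokine Ccl2 rose by 5.17 (adjusted p = 0.00118) and by 4.88 under rapamycin (adjusted p = 0.000996). Il6 was at background in unchallenged mice, on 1 of 3 BA+DMSO arrays (the others at 2.84 and -0.12) and on 0 of 3 BA+rapamycin arrays (2.84, 3.11 and 1.91). It was at least 104-fold higher in BA+rapamycin than in rapamycin, a lower bound set against the lowest signal well above background on each rapamycin array. The neutrophil chemokine Cxcl1 rose by 1.62 on vehicle (adjusted p = 0.00259) and differed by 0.50 under rapamycin (adjusted p = 0.144). Ptgs2, the inducible cyclooxygenase, was not called in either (0.75 and 1.94, adjusted p 0.513 and 0.0616). For rapamycin under challenge, 0 genes of any of these lists were called.

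**Figure D5:**
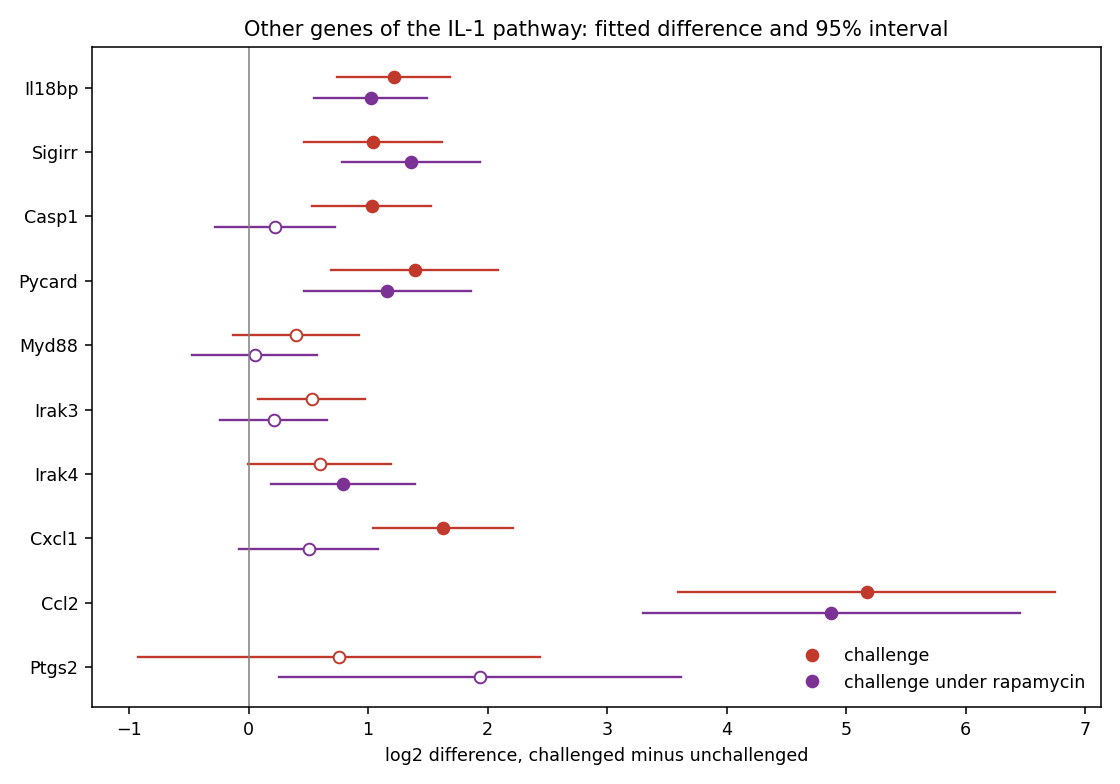
Log2 difference with its 95% interval for 10 other genes of the IL-1 pathway, for the challenge on vehicle and the challenge under rapamycin; filled points had an adjusted p under 0.05 in limma. Il18r1, Nlrp3 and Il6, whose differences involve levels at background, are left out of the plot, and the point farthest to the right is Ccl2, at 5.17 and 4.88.

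Cell-type markers moved with the same comparisons, and fewer cells of a type cannot be told apart from less RNA per cell in whole aorta. Sums of linear levels are given in multiples of the 75th percentile. Of 13 tested macrophage and monocyte markers, 12 rose with the challenge and 9 under rapamycin, and their sum was 113 to 142 (DMSO), 124 to 147 (rapamycin), 199 to 497 (BA+DMSO) and 394 to 516 (BA+rapamycin), the order kept below. Fibroblast markers, 5 of 10 higher in either comparison, summed to 1308 to 1685, 1474 to 1679, 1801 to 3022 and 2776 to 3143, and endothelial markers, 3 of 10 higher with the challenge and 2 higher and 2 lower under rapamycin, to 111 to 132, 130 to 188, 158 to 240 and 194 to 295. Mesothelial and epithelial markers, of which 2 of 10 were above background on all 3 DMSO arrays, rose for 6 of 10 with the challenge and for 0 of 10 under rapamycin, and summed to 12.6 to 24.1, 18.4 to 22.0, 22.6 to 34.0 and 16.5 to 35.2.

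Of 5 tested neutrophil markers 1 rose in each comparison, and Cxcr2, Mmp8, Ngp and Stfa2l1 were at background in all 4 groups. Retnlg, Ltf and Mpo were at background in every group but BA+DMSO. The neutrophil sums were 206 to 258, 202 to 242, 155 to 601 and 503 to 657. For T and NK cells 3 of 7 rose in each (sums 5.40 to 5.81, 4.81 to 6.21, 6.73 to 11.2 and 8.27 to 10.8), and 7 of 12 listed markers were at background on every BA+rapamycin array. For mast cells and basophils 1 of 5 rose in each (2.25 to 3.70, 2.93 to 4.04, 2.98 to 6.28 and 3.6 to 6.80), and Tpsab1, Fcer1a, Ms4a2 and Mcpt8 were at background in every group. For adipocytes 1 of 6 rose with the challenge and 0 of 6 under rapamycin (21.9 to 25.8, 17.0 to 34.6, 21.1 to 65.9 and 11.7 to 72.6). The adipocyte marker that rose was Ucp1, at background on every DMSO array. The mast cell and basophil marker that rose was Hdc, at background on every rapamycin array. Both were therefore tested through other groups. Smooth muscle markers had 1 of 10 lower with the challenge and 1 higher and 3 lower under rapamycin, with sums of 3000 to 3209, 2710 to 3174, 2502 to 4955 and 3559 to 4595. For rapamycin under challenge, 0 markers of any list were called, with a median of -1.73 for the mesothelial list. The part of any of these cells in the changes of Il33, Il18, Il1rap and Il1b was not tested.

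The members that moved with the challenge were also compared at their start sites. The 250 bases before each start are shown for Il33 (2 listed starts), Il18 and Il1rap, from RefSeq on GRCm38.p6, on the strand of the gene, with any match to the NF-kB consensus or to AP-1 (TGANTCA, both strands) to stand in capitals.
Il33 first start, chr19:29924863-29925112: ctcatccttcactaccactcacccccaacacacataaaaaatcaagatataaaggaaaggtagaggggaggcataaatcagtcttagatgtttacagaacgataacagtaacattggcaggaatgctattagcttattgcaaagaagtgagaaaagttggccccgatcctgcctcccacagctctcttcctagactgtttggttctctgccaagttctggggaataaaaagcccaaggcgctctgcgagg
Il33 second start, chr19:29945540-29945789: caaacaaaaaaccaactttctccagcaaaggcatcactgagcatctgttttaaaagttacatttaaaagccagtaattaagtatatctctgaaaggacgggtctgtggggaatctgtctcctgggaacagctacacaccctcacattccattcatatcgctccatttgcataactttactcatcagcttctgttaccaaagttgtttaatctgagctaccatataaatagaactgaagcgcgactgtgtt
Il18, chr9:50554450-50554699: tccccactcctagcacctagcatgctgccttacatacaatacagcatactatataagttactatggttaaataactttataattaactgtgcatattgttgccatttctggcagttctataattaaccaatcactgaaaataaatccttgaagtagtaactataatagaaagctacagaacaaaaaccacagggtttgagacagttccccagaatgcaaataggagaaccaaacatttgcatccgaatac
Il1rap, chr16:26581455-26581704: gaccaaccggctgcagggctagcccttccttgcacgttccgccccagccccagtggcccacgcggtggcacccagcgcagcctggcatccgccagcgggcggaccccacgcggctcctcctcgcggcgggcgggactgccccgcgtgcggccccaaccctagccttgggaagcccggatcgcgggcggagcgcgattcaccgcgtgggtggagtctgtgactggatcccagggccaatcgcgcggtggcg
No letters are in capitals, since neither motif occurred in these 4 windows. The Il1rap window was the richest in G and C of them, at 74.4%, against 45.2% and 39.6% for Il33 and 35.6% for Il18. Over the 15 windows of all 10 members, an NF-kB consensus occurred in 1 (Il1r1) and AP-1 in 2 (Il1a and Il1rn), where 7.25% and 6.75% of 32851 windows in the table held them. Absence of these letters in a window says nothing about binding elsewhere.

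Among all tested genes, those whose levels over the 12 arrays were most like a member were found by Pearson correlation, as a description in which arrays share brightness and treatment. For Il33 they were Bmper (r = 0.98), Rpl12 (0.97) and Rps19-ps13 (0.97), for Il18 Armcx6 (0.95), Akr1c13 (0.93) and Nrp2 (0.93), and for Il1rap Klhl35 (0.95), Rgs12 (0.95) and Slc7a7 (0.94). Among the members, Il33 was nearest to Il1rl1 (r = 0.72) and Il18 to Il1rap (r = 0.66), and Il33 with Il18 gave r = 0.32, over 12 arrays.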

How the data were processed

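RNA of 12 aortas was hybridised to 1-colour Agilent mouse arrays. Per the file headers, the deposited scanner files hold processed, spot and background signals as linear intensity values, not normalized between arrays, and flags (other values, 0 or 1), from Feature Extraction 10.7.1.1; the submitters' processing notes name 9.5.1.1. Intensity values of the deposited series matrix matched a quantile normalization of the processed signal (lowest r 0.9999 across probes). The log2 processed signal had outlier spots removed, spots of a probe averaged and the 75th percentile of the array subtracted. A probe was tested if at least 0.5 of its spots were well above background on all arrays of a group, and a gene stood by its brightest tested probe. All 12 arrays entered a limma 3.58.1 model (R 4.3.3), tested on simulated data. Replicates, numbered in order of deposition, are single mice, and their number limits the precision. Members, pathway and marker lists were chosen with earlier results of these data known, and 14 pathway genes were named by role whatever their values. Alternatives changed the scaling, background correction, filter, arrays, slide and replicate blocks, array weights (a gene-by-gene estimate was added after the planned one was seen) and call rule. Sequences came from RefSeq (GRCm38.p6) and the probe annotation (mm9).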

Additional observations from a re-analysis of the deposited data

How the results depend on the processing

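No result reversed. Of 625 recomputed member differences, 586 kept their direction and side of the threshold or changed sign only while uncalled (39 signs changed), 27 lost a call, 11 gained one and 1 value without a test moved, Il1rap for rapamycin alone, at 0.46 within the slide holding 3 DMSO arrays and 1 rapamycin array. The count of members called with the challenge, 3, became 2 with quantile normalization and 2 with the deposited matrix (Il18 lost in both), stayed 3 without a filter with Il18 lost and Il1b gained, and became 0 with slide as a fixed block, 0 with array weights, 0 in a fit of the 2 groups alone, 1 with a filter on all 12 arrays and 0 by the methods' rule (unadjusted p under 0.01 and a fold over 4 or under 0.25), and ran from 1 to 4 leaving out 1 array. The count for the challenge under rapamycin, 2, became 1 with quantile normalization, 1 with the deposited matrix, 1 with the filter on all 12 arrays, 1 with a common floor (chosen after seeing the data), 4 with normexp, 7 without a filter and 0 by the methods' rule, and ran from 1 to 2 leaving out 1 array. The filter on all 12 arrays left Il18 and Il1rap, each above background on 11, untested, so that their calls were not put to the test there. For rapamycin under challenge, 0 became 1 with the 75th percentile over probes above background on all arrays (Il33, adjusted p 0.047) and 1 with array weights made gene by gene (Il18, adjusted p 0.0269), and ran from 0 to 2. For rapamycin alone, 0 became 1 with array weights (Il33, adjusted p 0.0457). Leaving out 1 array, rapamycin alone and the interaction ran from 0 to 0. The planned array weights did not converge; the gene-by-gene estimate was chosen after seeing their results, and the 2 lead opposite ways for the challenge, 0 members against 4. A replicate block for digits shared by sample titles, which the labels do not say pair the mice, left 3, 0, 0, 2 and 0 members called in the 5 comparisons (consensus correlation 0.496). For slide as a random block, the consensus correlation was -0.13 and the counts did not change. All-probe counts moved more, from 5697 in the challenge to 15 with the slide block, 112 with array weights and 13427 with gene-by-gene weights, and from 11602 under rapamycin to 29650 without a filter. Array brightness limits Il1a, Il1b, Il1rn, Il1r2, Il18rap, the pathway gene Nlrp3 and, near its limit, Il1rap and the pathway gene Irak4.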
